A study of Mus musculus with 6 samples.

Results

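The genes that encode the subunits of the transcription factor AP-1 were examined for open chromatin in neural stem/progenitor cells (NSPCs) with and without the *Sox2* enhancer cluster SRR2–18. The 10 genes were *Jun*, *Junb*, *Jund*, *Fos*, *Fosb*, *Fosl1*, *Fosl2*, *Batf*, *Batf3* and *Atf3*. An accessible interval was assigned to one of them when the gene had the protein-coding transcription start site (TSS) nearest to the strongest summit of the interval, at most 50 kb away. Of 190365 intervals in the peak lists of the 2 genotypes, 119 met this rule, 57 of 82885 in parent NSPCs and 62 of 107480 in ΔSRR2–18 NSPCs. Every interval of a gene shares that locus, so the intervals are not independent of each other.

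The assay was ATAC-seq, in which a transposase inserts adapters into open DNA, and 3 cultures of each genotype were sequenced. Both genotypes were NSPCs derived from embryonic stem cells of the strain 129S1/Cast F1 Hybrid and carried a *Sox2*-mCherry reporter on the 129 allele. They were grown on poly-D-lysine and laminin in N2B27 medium with EGF and bFGF. The parent cells (Clone 5B) had no deletion, and the ΔSRR2–18 cells (Clone 47D) had a homozygous SRR2–18 deletion made with Cas9, so each genotype is a single clone. The authors combined the cultures of a genotype into 1 list of reproducible peaks, so the values below carry no error between cultures, and the genotypes are compared without a test. Because each list describes a population of cells, an interval open in fewer cells and one less open in each cell cannot be told apart. RNA of these genes is not measured by this assay.

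AP-1 is a dimer of basic leucine zipper proteins. JUN proteins pair with each other or with FOS, BATF or ATF proteins, and dimers of JUN and FOS bind the sequence TGANTCA, most often TGACTCA. Most of the genes are immediate-early genes, whose transcription rises within minutes of growth factor or stress signals through mitogen-activated protein kinases, and AP-1 sites are frequent in enhancers that open when cells change state. In neural cells *Fos* and *Fosb* are best known as genes switched on by activity.

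Intervals that no interval of the other genotype overlapped are called deletion-only or parent-only, and all others are called shared. The deletion-only interval with the highest fold enrichment was taken for each gene, and the 5 that held the AP-1 sequence within 100 bp of the summit are printed to show the sites that the counts below refer to. They are given 5′ to 3′ on the plus strand of GRCm38.p6 (mm10), and capitals mark TGANTCA. They lie at chr12:85519661-85519861 (45.87 kb downstream of the *Fos* TSS, intergenic), chr5:32089600-32089800 (46.1 kb upstream of *Fosl2*, intergenic), chr1:191216191-191216391 (1.748 kb downstream of an *Atf3* start site, in an intron), chr1:191103028-191103228 (4.803 kb downstream of *Batf3*, in an intron) and chr7:19316925-19317125 (6.974 kb upstream of *Fosb*, intergenic).
*Fos*: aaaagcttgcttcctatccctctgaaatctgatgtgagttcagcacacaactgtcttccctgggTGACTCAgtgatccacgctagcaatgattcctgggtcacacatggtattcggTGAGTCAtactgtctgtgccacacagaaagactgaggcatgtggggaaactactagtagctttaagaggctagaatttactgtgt
*Fosl2*: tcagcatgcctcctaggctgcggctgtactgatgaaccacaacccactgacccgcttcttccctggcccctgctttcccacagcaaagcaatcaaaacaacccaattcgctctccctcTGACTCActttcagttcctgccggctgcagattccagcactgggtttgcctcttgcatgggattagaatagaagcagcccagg
*Atf3*: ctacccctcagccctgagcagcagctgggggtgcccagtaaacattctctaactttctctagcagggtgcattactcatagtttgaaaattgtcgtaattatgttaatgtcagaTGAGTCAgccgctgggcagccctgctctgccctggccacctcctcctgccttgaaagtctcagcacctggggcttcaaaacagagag
*Batf3*: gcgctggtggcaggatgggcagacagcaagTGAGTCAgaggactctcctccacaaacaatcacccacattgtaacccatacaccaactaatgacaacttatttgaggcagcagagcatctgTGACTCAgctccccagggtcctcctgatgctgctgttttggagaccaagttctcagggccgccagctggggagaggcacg
*Fosb*: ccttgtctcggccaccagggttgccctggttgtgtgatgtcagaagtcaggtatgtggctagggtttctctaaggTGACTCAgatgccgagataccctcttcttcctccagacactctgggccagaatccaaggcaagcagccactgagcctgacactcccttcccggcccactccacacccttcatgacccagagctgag
All 7 sites in these windows read TGACTCA or its reverse complement TGAGTCA, the form with a C or G in the middle. The *Fos* and *Batf3* windows each hold 2 sites.

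For contrast, the only parent-only interval with more than 1 match is shown next, chosen after its values were seen. It lies 28.43 kb downstream of the *Jun* TSS at chr4:95023693-95023893, in an intron of the noncoding gene *Gm12694*.
*Jun*, parent-only: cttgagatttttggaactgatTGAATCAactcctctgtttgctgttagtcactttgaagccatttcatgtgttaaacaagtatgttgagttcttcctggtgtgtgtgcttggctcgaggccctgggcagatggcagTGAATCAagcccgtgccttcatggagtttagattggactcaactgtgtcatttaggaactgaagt
Both of its matches read TGAATCA, and neither is the TGACTCA form. The only other parent-only interval with a match lies 2.509 kb upstream of *Junb*. Its 1 match is of the TGACTCA form, 97 bp from the summit.

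The 22 parent-only intervals were 38.6% of the parent intervals of the AP-1 genes (exact Clopper-Pearson 95% interval, 26.0 to 52.43), and the 29 deletion-only intervals were 46.8% of the ΔSRR2–18 intervals (33.98 to 59.88). These intervals and all those below cover counting error only. Over the whole lists, 52.3% of parent intervals were parent-only and 63.1% of ΔSRR2–18 intervals were deletion-only. Over intervals within 50 kb of any protein-coding TSS, which is the part of the genome the rule could reach, the shares were 45.0% and 53.0%. Both of these last shares lie inside the counting intervals of the AP-1 genes, and the 63.1% of the whole ΔSRR2–18 list lies above them. The AP-1 genes thus did not stand out for their share of list-specific intervals.

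The AP-1 genes had many intervals for the DNA assigned to them. There were 9.981 intervals per 100 kb in parent NSPCs and 10.86 in ΔSRR2–18 NSPCs, against 4.701 and 5.525 for all 21911 protein-coding genes. *Fosl2* (4.063) and *Atf3* (4.257) in parent NSPCs stood below the value for all genes. So did *Fosl2* (5.078) and *Batf* (5.46) in ΔSRR2–18 NSPCs, and all other members stood above it. The highest parent value, 39.29 at *Junb*, was over only 10.18 kb. The median gene of the 10 had 4.5 parent and 5.0 ΔSRR2–18 intervals, against a median of 2.0 in both lists for all protein-coding genes. The genes differed widely among themselves, from 1 parent interval at *Fosl1* and 2 ΔSRR2–18 intervals at *Jund* to 14 and 13 at *Fos*, as the plot of counts by gene shows.

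**Figure D1:**
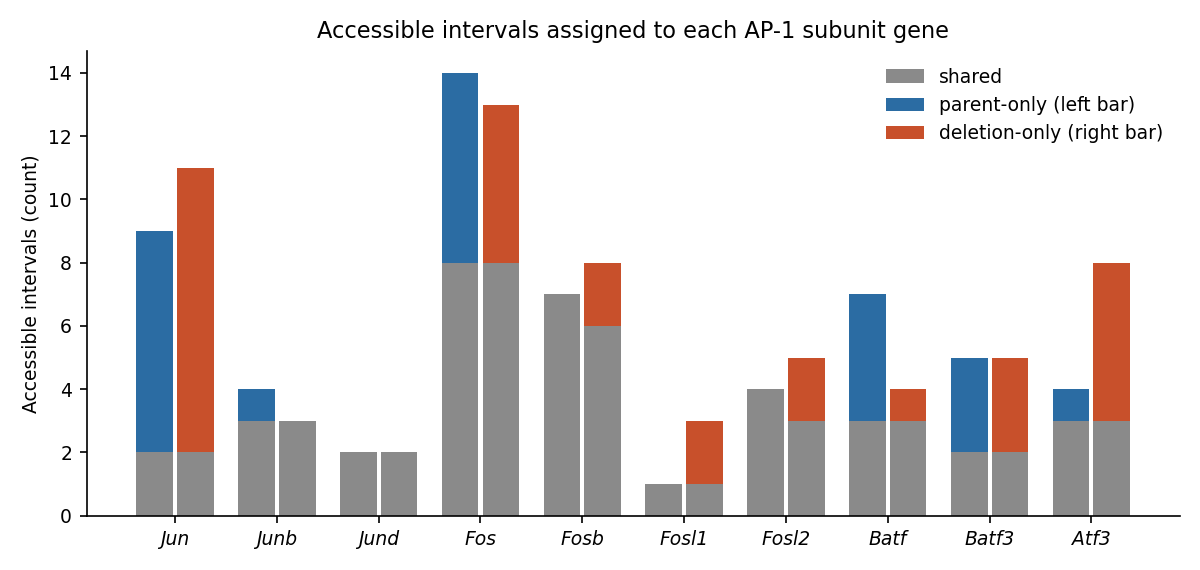
Number of accessible intervals assigned to each AP-1 subunit gene in parent NSPCs (left bars) and ΔSRR2–18 NSPCs (right bars), with shared intervals in grey and list-specific intervals in colour. *Jun* has 7 parent-only and 9 deletion-only intervals and *Atf3* 1 and 5, whereas *Jund* has only shared intervals.

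The lists differ in background. The lowest background, which is the genome-wide mean of reads piled up at a position, was 38.84 reads for parent and 19.66 reads for ΔSRR2–18 NSPCs, a ratio of 1.976, so fold enrichments and reads were compared by their rank within a list or after division by this background. This ratio is at odds with the labels, which give 50 to 60 M reads for every culture of both genotypes, and its cause was not tested. Marker promoters were checked in both lists. All 8 neural stem and progenitor markers had an interval in both, and of the 5 pluripotency markers 1 (*Esrrb*) did in each list. Epithelial marker promoters were open for 1 of 5 in parent NSPCs (*Cdh1*) and 4 of 5 in ΔSRR2–18 NSPCs, with *Epcam*, *Krt8* and *Grhl2* only in the second. Mesenchymal markers gave 3 and 4 of 5, neuron markers 4 and 5 of 5, and neural crest markers 2 of 3 in both. What part such a shift has in the intervals of the AP-1 genes was not tested.

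Promoters of the AP-1 genes were open in both genotypes. An interval within 1 kb of the TSS was present in both lists for 9 of the 10 genes, and *Batf*, a partner of JUN known from lymphocytes, had one in neither. Among all protein-coding genes, 52.4% had a promoter interval in both lists and 37.6% in neither. The 10 promoter intervals of each list, of which *Fosb* had 2, were all shared.

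The promoters with the most reads were those of *Jun* and *Fosl2*. *Jun* encodes c-JUN, the subunit that binds DNA best with FOS. Its promoter summit stood 0.133 kb upstream of the TSS in parent NSPCs, with 7302 reads, in the top 0.6491% of that list by reads. In ΔSRR2–18 NSPCs it had 3248 reads, in the top 0.5122%. At *Fosl2*, which encodes FRA2, the promoter had 5419 reads (top 3.114%) in parent and 3054 reads (top 0.6876%) in ΔSRR2–18 NSPCs. Both promoters were thus near the top of each list by reads, while by fold enrichment they sat in the middle, at the top 55.98% and 52.36% for *Jun* and the top 53.44% and 66.88% for *Fosl2*. The local background, against which the peak caller measures enrichment, was 835.7 reads at the *Jun* promoter in parent NSPCs.

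RefSeq promoter sequences matched 9 of the 10 genes, all but *Fosl1*. The 250 bases upstream of the start of the *Jun* transcript (GRCm38.p6, chr4:95052223-95052472) are shown on the strand of the gene, with capitals for 2 sites known as jun2 and jun1, at which JUN dimers are reported to bind the promoter of their own gene.
*Jun* promoter: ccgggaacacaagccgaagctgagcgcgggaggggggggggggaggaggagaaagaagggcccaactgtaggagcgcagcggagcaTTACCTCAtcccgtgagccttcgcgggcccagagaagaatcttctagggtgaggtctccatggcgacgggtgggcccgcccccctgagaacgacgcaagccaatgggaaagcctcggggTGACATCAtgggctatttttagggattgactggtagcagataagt
The jun2 site, TTACCTCA, starts 164 bases and the jun1 site, TGACATCA, 45 bases upstream of the RefSeq start. Either strand counted, the letters of jun2 were in 0.728% and those of jun1 in 2.93% of 32851 mouse promoters of the same length. The window lies inside the promoter interval of both lists. The sequence TGANTCA was in the 250 bases of none of the 9 genes and in 6.75% of all promoters. The other motifs searched, on both strands, were also without a match in these 9 windows. They were CRE (TGACGTCA, in 1.55% of all promoters), the CArG box bound by SRF (1.47%), ETS (CCGGAAGT, 2.88%), SOX (ACAAAGG or ACAATGG, 7.92%) and TEAD (CATTCCA, 3.69%), and no match of one of these motifs can be a match of another at the same letters. RefSeq starts are not always the GENCODE starts used to assign intervals, and the 2 differ most for *Jund* and *Fosl2*. For these 2 genes the 250 bases lie outside the promoter interval of both lists. Within 100 bp of its summit, the *Fosl2* promoter interval held TGANTCA and a SOX motif in both lists. The *Fosl1* promoter interval held TGANTCA, 56 bp from the summit, in the list of the genotype with the deletion and not in the parent list. The *Jund* promoter interval held a CRE in the parent list only, and that at the *Fosb* TSS a CArG box in both lists. Within 100 bp of their summits, the promoter intervals of *Jun*, *Junb*, *Fos*, *Batf3* and *Atf3* held none of these motifs. Bases of these intervals outside the windows were not searched, so a motif elsewhere in them would have been missed.

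Of the remaining promoters, 2 stood far lower in the ΔSRR2–18 list than in the parent list. *Fosl1* encodes FRA1, a FOS protein that lacks the activation domain of c-FOS. Its promoter had a fold enrichment of 15.83 in parent NSPCs, in the top 23.27%, and of 4.689 in ΔSRR2–18 NSPCs, in the top 91.65%, which was the largest fall among the 33 shared pairs. The strongest summits of the 2 genotypes lie 150 bp apart there. Reads at them over the genome background were nearly the same, 36.15 in parent and 33.32 in ΔSRR2–18 NSPCs. The local background was 87.74 and 138.9 reads. The fall in fold enrichment thus came with a higher local background in the shallower list, and a strong deletion-only interval lay 2.429 kb upstream of the TSS.

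The promoter of *Batf3*, which encodes a JUN partner needed for a dendritic cell lineage, fell both by enrichment and by reads. Its fold enrichment was 16.04 (top 22.48%) in parent and 8.354 (top 63.62%) in ΔSRR2–18 NSPCs. Reads over the genome background were 80.25 and 29.2, a ratio of 0.3639, the lowest of the 33 pairs. No other promoter pair of these genes had a ratio below 0.7343.

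The 5 other genes with promoter pairs changed less. *Junb*, which encodes a JUN protein that often counteracts c-JUN, had 3265 reads and a rank of 82.77% from the top in parent and 1448 reads and 89.48% in ΔSRR2–18 NSPCs. *Jund*, the most steadily expressed JUN gene in many tissues, had 4329 reads at 58.05% and 2060 reads at 52.42%. These 2 promoters moved by fewer than 7 percentage points in rank. *Fos* had 3751 reads at 54.18% in parent and 2367 reads at 63.96% in ΔSRR2–18 NSPCs. Its ratio of reads over background, 1.247, was the highest of the 10 promoter pairs. The *Fosb* pairs had 2242 and 835 reads at the TSS (69.51% and 78.56%) and 4176 and 1552 reads 0.908 kb downstream of it (39.23% and 47.9%). *Atf3*, a stress-induced gene whose product pairs with JUN, had 4679 reads at 36.96% and 2113 reads at 45.28%. That interval lies at the inner of the 2 *Atf3* start sites, which are 34.7 kb apart, and distances for *Atf3* are from whichever start is nearer. Over the 10 promoter pairs the median ratio of reads over background, ΔSRR2–18 to parent, was 0.8856, against 0.7311 over 13903 promoter pairs of the lists.

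More than 1 kb from the TSS, 22 of 47 parent intervals (46.8%) were parent-only and 29 of 52 ΔSRR2–18 intervals (55.8%) were deletion-only. For all intervals 1 to 50 kb from a protein-coding TSS these shares were 57.2% and 64.5%. All list-specific intervals of the AP-1 genes were thus distal. Introns held 17 of the 29 deletion-only intervals and 7 of the 22 parent-only ones, and 11 and 12 were intergenic.

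**Figure D2:**
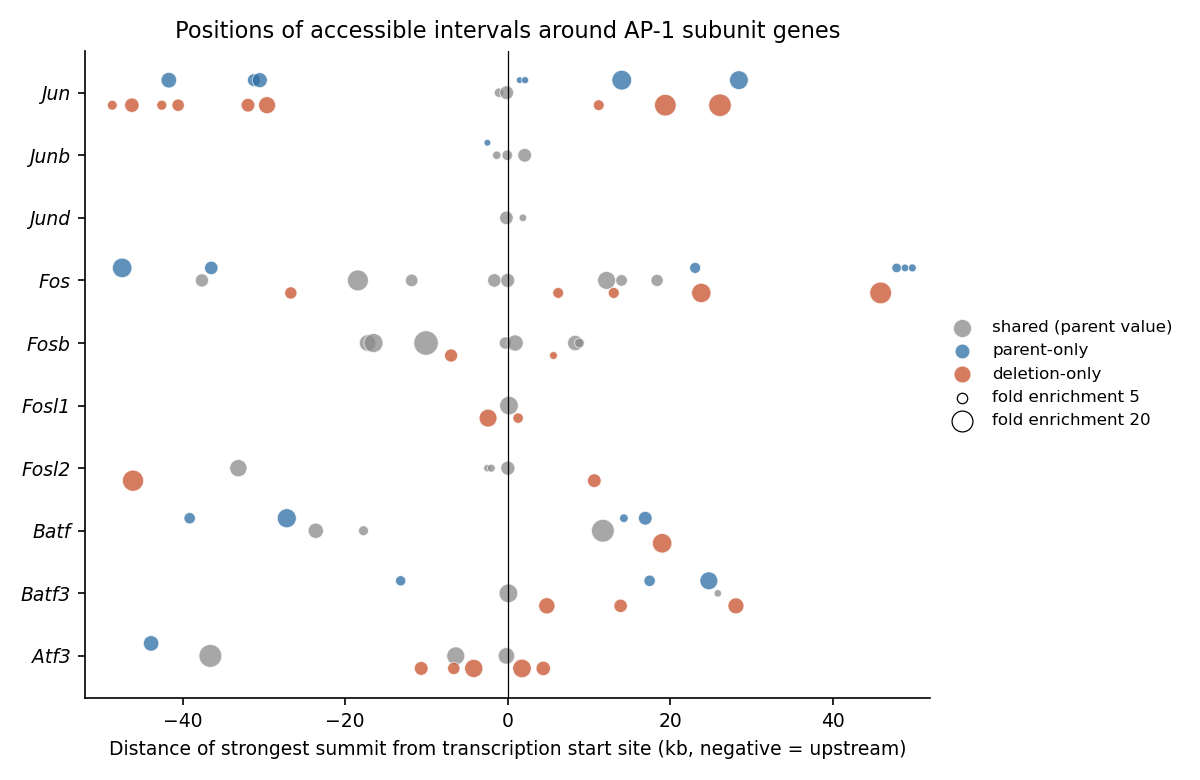
Distance of the strongest summit of each interval from the nearest TSS of its AP-1 gene, in kb, with 1 row per gene. Grey points are shared intervals at their parent position, blue points (drawn above) parent-only and orange points (drawn below) deletion-only intervals, and point area is proportional to fold enrichment in the list of origin. Around *Jun* the shared points stand near the TSS and every point farther out, up to 50 kb, is blue or orange.

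The *Jun* locus had the most list-specific intervals. It had 11 intervals in ΔSRR2–18 NSPCs, of which 9 were deletion-only, and 9 in parent NSPCs, of which 7 were parent-only. As many deletion-only intervals were found at 1.96% of protein-coding genes, and as many parent-only intervals at 2.43%. These percentages do not allow for the length of DNA assigned, 86.56 kb for *Jun* against a median of 47.13 kb for all protein-coding genes. The shared ones were the promoter and an interval 1.078 kb upstream, so every *Jun* interval farther out, up to the limit of 50 kb, was found in a single genotype. Some were close neighbours across genotypes. Deletion-only intervals 29.61, 31.96, 40.55 and 42.56 kb upstream had a parent interval 245, 277, 684 and 358 bp away. Shared intervals of *Jun* lay just beyond that limit. The upstream intervals lie in introns of *Junos*, the noncoding gene that starts at the *Jun* promoter on the other strand, and those downstream lie in introns of *Gm12703* and *Gm12694* or, for 2 parent-only ones, in *Jun* itself. Those 2 had fold enrichments of 2.019 and 2.328 with 1694 and 1932 reads, on a local background of 838.5 and 829.3 reads.

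On the downstream side of *Jun*, a pair of strong deletion-only intervals lay between a pair of strong parent-only ones. In parent NSPCs the summits stood 14.02 kb downstream (fold enrichment 17.79, 2086 reads) and 28.43 kb downstream (16.23, 1107 reads). In ΔSRR2–18 NSPCs they stood 19.38 kb (21.37, 1737 reads) and 26.11 kb downstream (23.2, 2068 reads). The last of these was in the top 5.398% of its list by fold enrichment and the top 3.089% by reads, the highest rank by fold enrichment of any deletion-only interval of the 10 genes. Neither of the strong deletion-only intervals downstream of *Jun* held TGANTCA within 100 bp of its summit. On the upstream side, 6 deletion-only intervals from 29.61 to 48.66 kb had fold enrichments of 4.375 to 13.28, and 5 of the 6 held the motif. A further deletion-only interval 11.19 kb downstream, with 109 reads, held it too.

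*Junb* and *Jund* had no deletion-only interval. *Junb* had 3 shared intervals and 1 parent-only interval, 2.509 kb upstream with a fold enrichment of 2.082, in the lowest part of the list (99.67% from the top). *Jund* had 2 shared intervals and nothing else. These genes have short stretches assigned to them, 10.18 kb for *Junb* and 15.01 kb for *Jund*, because other genes lie close by, whereas *Jun* has 86.56 kb.

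*Fos*, the founding FOS gene, had the most intervals, 14 in parent and 13 in ΔSRR2–18 NSPCs, and 8 of each were shared. As many parent intervals were found at 1.15% of protein-coding genes, without allowing for the 99.52 kb assigned to *Fos*. The strongest shared interval of *Fos* lay 18.44 kb upstream and had 6887 reads (top 0.9525% by reads) in parent and 5575 reads (top 0.02698%) in ΔSRR2–18 NSPCs. The ratio of reads over genome background, ΔSRR2–18 to parent, was 1.599. Against local background the interval changed little, with a fold enrichment of 20.08 (top 9.608%) in parent and 21.4 (top 8.777%) in ΔSRR2–18 NSPCs. Shared intervals 12.15 kb downstream (4866 and 3138 reads) and 1.651 kb upstream (3620 and 2738 reads) also ranked higher by reads in ΔSRR2–18 NSPCs. By fold enrichment the first ranked lower there (top 27.5% in parent and 35.46% in ΔSRR2–18 NSPCs) and the second higher (58.47% and 54.72%).

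List-specific intervals of *Fos* lay on both sides. The deletion-only interval 45.87 kb downstream, whose sequence with 2 AP-1 sites is printed above, had a fold enrichment of 21.61 and 2350 reads, in the top 2.039% by reads. The deletion-only interval with the most reads, 3018 (top 0.7169%), lay 23.81 kb downstream with a fold enrichment of 17.19 and had no AP-1 motif. It began 135 bp from a parent-only interval with 339 reads and a fold enrichment of 5.529. The strongest parent-only interval lay 47.44 kb upstream, with a fold enrichment of 17.53 and 926 reads. Of the 5 deletion-only intervals of *Fos* 1 held the AP-1 motif, and of the 6 parent-only ones none did.

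*Fos* and *Batf* lie on distal chromosome 12, where reads in shared intervals were higher in ΔSRR2–18 NSPCs over many genes. From 75 Mb to the end, a limit set after the values were seen, the median ratio of reads over background at 892 shared pairs that are not of these genes was 1.452, against 0.8354 below 75 Mb on the same chromosome and 0.8396 elsewhere in the genome. The 11 pairs of *Fos* and *Batf* had a median ratio of 1.274 and the 22 pairs of the other genes 0.8776. What part the segment has in the values of *Fos* and *Batf* was not tested. Without these 2 genes, 12 of 36 parent intervals (33.3%) were parent-only and 23 of 45 ΔSRR2–18 intervals (51.1%) were deletion-only.

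*Fosb*, whose product resembles c-FOS and also exists as the stable short form ΔFOSB, was almost entirely shared. All of its 7 parent intervals and 6 of its 8 ΔSRR2–18 intervals were shared. Its shared interval 10.06 kb upstream had the highest fold enrichment of any parent interval of the 10 genes, 27.5 (top 0.5719%), and 18.2 (top 17.2%) in ΔSRR2–18 NSPCs. The deletion-only ones lay 6.974 kb upstream (fold enrichment 7.837, 673 reads, 1 AP-1 site printed above) and 5.62 kb downstream in a UTR of *Fosb* (2.838, 354 reads, no AP-1 site). Both were below the median fold enrichment of their list, 10.45.

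*Fosl1* and *Fosl2* each had 2 deletion-only intervals and no parent-only interval. At *Fosl1* they lay 2.429 kb upstream (fold enrichment 14.65, 1949 reads, top 3.703% by reads) and 1.267 kb downstream in an intron (4.939, 698 reads). The second held an AP-1 motif, and the first, with more reads, did not. At *Fosl2* they lay 46.1 kb upstream (20.49, 1372 reads) and 10.64 kb downstream in an intron (8.538, 423 reads), and both held the motif. The only interval of *Fosl1* in parent NSPCs was its promoter, so its count went from 1 to 3.

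*Atf3* had 5 deletion-only intervals and 1 parent-only interval. All 5 held the AP-1 motif, a share that *Fosl2*, with 2 of 2, also reached. The strongest lay 1.748 kb downstream of a start site in an intron (fold enrichment 15.79, 680 reads), and one 4.185 kb upstream was nearly as high by enrichment and higher by reads (15.24, 1192 reads, top 11.52%). The other 3 were in introns with fold enrichments of 6.991 to 9.493. The parent-only interval, 43.88 kb upstream with a fold enrichment of 11.02, held a SOX motif and no AP-1 motif.

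The BATF genes had list-specific intervals in both genotypes. *Batf* had 4 parent-only intervals, the strongest 27.19 kb upstream (fold enrichment 16.62, 915 reads), and 1 deletion-only interval, 18.99 kb downstream in an intron (17.42, 1392 reads). None of the 5 held an AP-1 motif. *Batf3* had 3 of each kind. The strongest deletion-only one, 4.803 kb downstream in an intron, had a fold enrichment of 12.11, 597 reads and the 2 AP-1 sites printed above, and the strongest parent-only one, 24.73 kb downstream, had 14.72 and 1495 reads with no AP-1 site.

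Some list-specific intervals lay close to an interval of the other genotype. Of the 29 deletion-only intervals, 7 (24.1%) had a parent interval within 1 kb, against 9.73% of all deletion-only intervals, and of the 22 parent-only intervals 8 (36.4%) had a ΔSRR2–18 interval within 1 kb, against 14.1%. The deletion-only intervals had a median of 597 reads, 30.37 times the genome background, where all deletion-only intervals had 14.7 times. For parent-only intervals these medians were 11.97 and 12.25 times. By reads 8 of the 29 deletion-only intervals were in the top 10% of their list, against 4.14% of all deletion-only intervals, and 0 of the 22 parent-only ones were, against 2.45%. Of these 8, 4 belong to *Fos* and *Batf* on distal chromosome 12, and the other genes had 4 of 23. By fold enrichment 3 of the 29 (10.3%, against 9.21% of all) and 0 of the 22 (against 6.7%) were in the top 10%, and the median rank of the deletion-only intervals was the top 61.04%, lower than the 55.29% of all deletion-only intervals.

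The AP-1 motif was frequent in the deletion-only intervals, as it was in deletion-only intervals everywhere. TGANTCA stood within 100 bp of the summit in 17 of 29 deletion-only intervals (58.6%, 38.94 to 76.48), and in 2 of 22 parent-only intervals (9.09%, 1.121 to 29.16). Over all intervals it stood in 50.7% of 67794 deletion-only and 4.59% of 43385 parent-only intervals. Both shares of the AP-1 genes have counting intervals that include the share of the whole class. In flanks of the same width 500 bp away the motif was found in 3.45% of deletion-only windows of the AP-1 genes. Where present, it stood a median of 24 bp from the summit, against 25 bp over all deletion-only intervals.

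The share differed between the genes. All 5 deletion-only intervals of *Atf3* and both of *Fosl2* held the motif, 6 of 9 did at *Jun*, 1 of 2 at both *Fosb* and *Fosl1*, 1 of 3 at *Batf3*, 1 of 5 at *Fos* and 0 of 1 at *Batf*. Without *Fos* and *Batf* the share was 69.6% of 23 intervals. In 16 of the 17 intervals with a match, at least 1 was of the TGACTCA form.

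**Figure D3:**
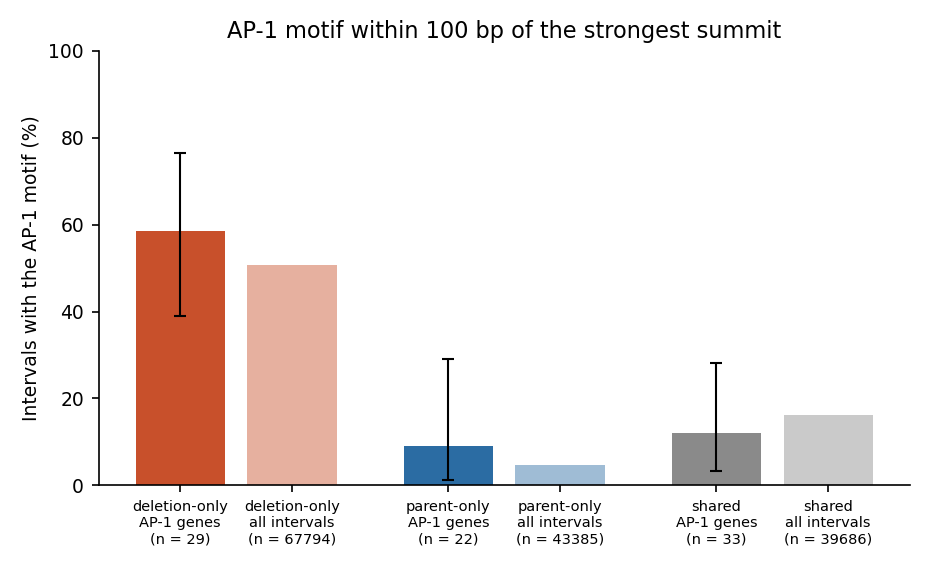
Percentage of intervals with TGANTCA within 100 bp of the strongest summit, for intervals of the AP-1 genes (dark bars, with exact 95% intervals of counting error) and for all intervals of the same class (pale bars, without error bars). Shared intervals are those of the ΔSRR2–18 list, and the 58.6% of deletion-only intervals stands above 9.09% of parent-only and 12.1% of shared intervals.

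The SOX and TEAD motifs were counted in the same windows. A SOX motif stood in 1 of 29 deletion-only intervals (3.45%), against 6.55% of all deletion-only intervals. It stood in 1 of 22 parent-only intervals (4.55%, 0.115 to 22.84), against 15.1% of all parent-only intervals. A TEAD motif stood in 4 of 22 parent-only (18.2%, 5.187 to 40.28) and 2 of 29 deletion-only intervals, against 6.27% and 9.43% of all. The counting intervals of the SOX and TEAD shares include the shares of all parent-only intervals.

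Among shared intervals, the CArG box, which serum response factor binds in immediate-early genes, stood in 4 of the 33 ΔSRR2–18 intervals (12.1%, 3.403 to 28.2) and in 1.0% of all shared intervals. They were the *Fosb* promoter, 2 intervals at *Junb* and the *Fos* interval 12.17 kb downstream. AP-1 stood in 4 of the 33 as well, where 16.1% of all shared intervals held it. The *Fos* and *Fosb* windows are shown, chosen after their values were seen, at chr12:85485958-85486158 and chr7:19310249-19310449, 5′ to 3′ on the plus strand of GRCm38.p6 with the CArG box in capitals.
*Fos*, shared: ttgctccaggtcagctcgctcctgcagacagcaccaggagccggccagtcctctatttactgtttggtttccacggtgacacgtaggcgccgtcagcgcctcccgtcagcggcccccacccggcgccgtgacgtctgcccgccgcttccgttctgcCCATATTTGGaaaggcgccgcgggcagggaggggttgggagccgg
*Fosb*, shared: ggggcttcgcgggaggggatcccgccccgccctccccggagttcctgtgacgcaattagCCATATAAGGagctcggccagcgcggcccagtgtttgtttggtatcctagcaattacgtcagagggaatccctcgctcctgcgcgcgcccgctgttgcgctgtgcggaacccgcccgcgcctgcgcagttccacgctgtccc
All 4 of these intervals were open in both genotypes, as shared intervals are by definition. The *Fos* interval had 4866 reads in parent and 3138 in ΔSRR2–18 NSPCs, and the *Fosb* promoter had 2242 and 835. Their ratios of reads over genome background, ΔSRR2–18 to parent, were 1.274 and 0.7359.

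Shared intervals were compared by rank in 33 pairs. By fold enrichment 12 pairs (36.4%, 20.4 to 54.88) ranked higher in ΔSRR2–18 NSPCs, against 42.9% of 39096 pairs in the lists. By −log10 p 15 pairs did and by reads 20. The direction was the same by all 3 measures for 23 pairs, of which 11 ranked higher and 12 lower in ΔSRR2–18 NSPCs, and depended on the measure for the other 10. The median ratio of reads over background was 0.9218 for the 33 pairs and 0.8478 for all pairs, with a range of 0.3639 to 3.396.

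The pairs that moved most were distal intervals on the way up and promoters or distal intervals on the way down. *Batf* 23.62 kb upstream went from the top 45.33% to the top 4.632% (fold enrichment 10.75 and 23.67). *Batf3* 25.84 kb downstream went from 98.74% to 62.9%, with 256 reads in parent and 440 in ΔSRR2–18 NSPCs, the highest ratio over background (3.396), and its 2 summits lie 175 bp apart. *Fos* 11.82 kb upstream went from 65.41% to 32.62%, with 288 and 369 reads, at summits that lie 402 bp apart. These 3 rose, and 2 of them lie on distal chromosome 12. Besides the *Fosl1* and *Batf3* promoters described above, the *Atf3* interval 6.398 kb upstream fell most, from the top 26.89% to 73.96%, with 2177 and 535 reads. It holds an AP-1 motif in both lists, and a deletion-only interval with 1192 reads lies close to it.

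**Figure D4:**
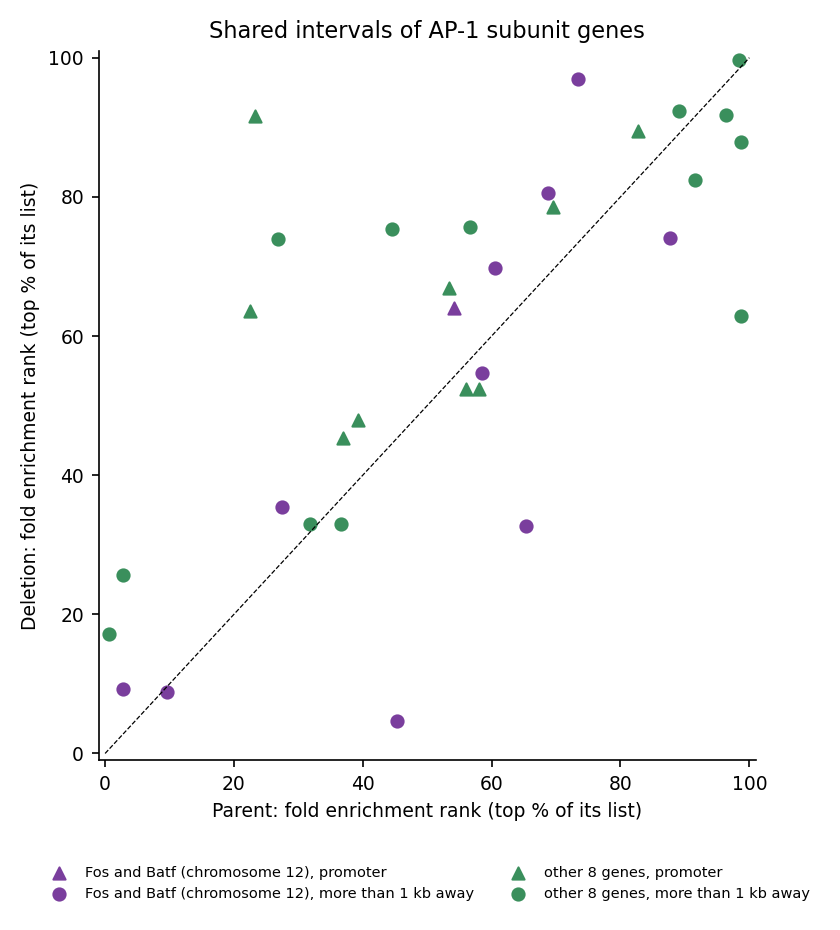
Rank by fold enrichment of the 33 shared intervals of AP-1 subunit genes in the parent list (horizontal) and the ΔSRR2–18 list (vertical), in percent from the top, so that small values are strong. Points below the dashed line of equal rank, 12 of 33, ranked higher in ΔSRR2–18 NSPCs, and the triangle at the upper left is the *Fosl1* promoter (23.27% and 91.65%).

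Genes related to AP-1 were counted in the same way for context. Other AP-1 and related leucine zipper genes had 46 deletion-only intervals among 77 (59.7%) and 24 parent-only among 53 (45.3%). *Bach1*, a repressor of oxidative stress genes, had 12 deletion-only and no parent-only intervals, *Bach2* 8 and 7, and *Jdp2*, a JUN dimerization partner, 6 and 7. The AP-1 motif stood in 65.2% of the deletion-only intervals of this list and in 0 of its 24 parent-only intervals. Over all intervals these shares were 50.7% and 4.59%. In the lists described next, the deletion-only share was 63.2% for upstream kinases and factors, 54.1% for other immediate-early genes and 63.3% for AP-1 targets. For the kinases and factors upstream of AP-1 the counts were 38 of 69 (55.1%) and 23 of 54 (42.6%), led by *Elk3* (12 and 8) and the JNK3 gene *Mapk10* (10 and 8).

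Other immediate-early genes had 37 deletion-only intervals of 75 (49.3%) and 24 parent-only of 60. *Dusp1*, which encodes a phosphatase of these kinases, had 9 and 4, and *Egr1* 2 and 5. Genes known as AP-1 targets had 49 of 77 (63.6%, 51.88 to 74.3) and 17 of 46 (37.0%), and 10 of the 12 had more deletion-only than parent-only intervals. Such an excess was also found at 7 of 10 other AP-1 and related genes, 7 of 13 upstream genes and 6 of 10 other immediate-early genes. The share of all genes with such an excess was not counted, but the medians of all genes were 1.0 deletion-only and 0.0 parent-only intervals. *Anxa1* had 12 and 2, *Cd44* 6 and 5, *Spp1*, the osteopontin gene, 6 and 2, and the collagenase gene *Mmp13* 5 and 0. Beside the 53.0% of all ΔSRR2–18 intervals near genes, the targets were the list with the highest share, and the subunit genes, at 46.8%, the lowest of these 5 lists. The counting interval of the targets includes this 53.0% and the 63.1% of the whole ΔSRR2–18 list.

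Compared with other transcription factor families, the AP-1 genes were intermediate. The share of deletion-only intervals was 51.9% of 52 for the YAP, TAZ and TEAD genes (37.63 to 65.99), 54.6% of 97 for the Klf genes (44.21 to 64.78) and 38.1% of 42 for the NFI genes (23.57 to 54.36), against 46.8% of 62 here. The counting intervals of all 4 families overlap. The AP-1 motif stood in 63.0% of the deletion-only intervals of the first family, 39.6% of the second and 37.5% of the third, against 58.6% here.

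The distance limit left out some strong intervals. The member nearest to the limit was a parent-only *Fos* interval 49.76 kb downstream, with a fold enrichment of 2.892. Just outside were a deletion-only *Atf3* interval at 50.06 kb upstream (15.26) and a parent-only *Fos* interval at 50.82 kb downstream (13.47). A deletion-only *Fos* interval lay 53.34 kb downstream, with a fold enrichment of 24.21 and 2708 reads. At *Jun* a pair of shared intervals lay upstream beyond the limit, one with summits at 53.35 kb in parent (1166 reads) and 53.31 kb in ΔSRR2–18 NSPCs (2183 reads), and the other at 54.07 kb (1916 reads) and 53.96 kb (2027 reads). When the nearest TSS of any gene was used, the noncoding genes beside *Jun* and others took many intervals, and 12 deletion-only and 4 parent-only intervals remained.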

How the data were processed

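ATAC-seq libraries of 3 parent and 3 ΔSRR2–18 cultures were processed by the authors with the ENCODE ATAC-seq pipeline (1.10.0 per the paper) on mm10, with peaks called by MACS2 and cultures combined by IDR. Per the labels, a culture gave 30000 cells, 11 to 14 PCR cycles and 50 to 60 M reads. The deposited lists give for each peak an IDR score, a ratio of signal to local background (fold enrichment), a −log10 p and the place of the summit, all from pooled reads. Their −log10 q was not used. The alleles are not separated, and reads of the Cast allele may map less often to mm10.

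The conservative lists were used. Repeated intervals were reduced to 1, with values from the summit of highest fold enrichment. An overlap of at least 1 bp made intervals shared, and a pair was shared intervals that were each other's best overlap. The MACS2 Poisson model was inverted to obtain summit reads and local background from fold enrichment and −log10 p, with a pseudocount of 1. All strongest summits gave whole reads within 0.05. TSSs came from the GENCODE M21 basic annotation, and sequences from GRCm38.p6 and RefSeq. Motifs were exact matches on both strands. Shares carry exact Clopper-Pearson 95% intervals. Scripts ran in Python 3.11.15 (numpy 2.4.6, pandas 2.3.3, scipy 1.17.1), and recovery, overlap and motif steps were tested on simulated data.

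All 10 genes are named, with each promoter interval, the strongest deletion-only and parent-only interval of each gene, and the 3 pairs whose rank rose and fell most. Other intervals named were picked once their values were known. In the related lists, the genes named are among those with the most list-specific intervals. The genes, lists and motifs were chosen with earlier results of these data known.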

Additional observations from a re-analysis of the deposited data

How the results depend on the processing

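No paired analysis was possible because each deposited list pools the cultures of a genotype, and for the same reason no culture could be left out. Of 16 alternatives, 13 left the 29 deletion-only intervals within 1.5 times. The exceptions were the 25000 strongest intervals of each list (7), a gene distance of 10 kb (10) and the nearest TSS of any gene type (12). The same settings moved the 22 parent-only intervals to 11, 3 and 4, and leaving out *Fos* and *Batf* moved them to 12. That setting and one without *Jun* were chosen after seeing the data. Shared intervals went from 33 to 3, 19 and 21 in the ΔSRR2–18 list and from 35 to 3, 20 and 21 in the parent list. These settings keep fewer intervals by construction. With lists of equal length by fold enrichment the parent-only share rose from 38.6% to 57.9%, with 60.0% of all parent intervals parent-only. The AP-1 motif share of deletion-only intervals was 48.3% to 70.0% over 9 alternatives. For parent-only intervals it was 33.3% (1 of 3) at 10 kb and 4.55% to 16.7% otherwise. Pairs ranking higher in ΔSRR2–18 NSPCs numbered 20 by summit reads, 3 of 23 with lists of equal length and 7 of 22 without *Fos* and *Batf*, against 12 of 33. Genes with a promoter interval in both lists stayed at 9 with a 2.5 kb limit and with the optimal lists.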
